A study of Mus musculus with 6 samples.

Results

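Gata4, Gata6, Nkx2-5, Mef2a, Mef2c, Mef2d, Tbx5, Tbx20, Hand2 and Srf encode the core transcription factors of cardiac muscle, and their transcripts were compared between ventricles of Tributyrin-treated and vehicle-treated mice on a western diet (WD). The genes were taken by symbol, and all 10 were matched by Ensembl identifier among the 54232 genes of the deposited count tables. All 10 passed the filter on low counts and are therefore among the 14133 genes tested. The groups were 3 WD + Tributyrin mice and 3 WD mice given vehicle, which the labels name PBS. All 6 animals were wild-type C57BL/6J mice on WD, and per the study's methods treatment began at the end of week 15 on the diet. The study calls this diet-induced obesity model pre-HFpEF, a stage before clinical heart failure with preserved ejection fraction (HFpEF). Tributyrin, a glycerol ester of the short-chain fatty acid butyrate, was given by needle feeding at 5 g/kg body weight, 2 days on and 2 days off, for 3 weeks. The study used both sexes, and neither the sex nor the age of these 6 animals is given in the sources used here. The question of the RNA sequencing was which heart transcripts move with the treatment.

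GATA4 and GATA6 are zinc finger proteins, NKX2-5 is a homeodomain protein, MEF2A, MEF2C, MEF2D and SRF are MADS-box proteins, TBX5 and TBX20 are T-box proteins, and HAND2 is a basic helix-loop-helix protein. They bind together at enhancers and promoters of contractile, ion channel and natriuretic peptide genes, specify the heart in the embryo and maintain the muscle phenotype in the adult. Class II histone deacetylases (HDACs) bind and repress the MEF2 proteins, myocardin drives SRF at muscle genes, and butyrate is an HDAC inhibitor. None of this was measured here, since only RNA was sequenced.

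No change of any of the 10 factors passed a test. At a false discovery rate (FDR) of 10%, 0 of 10 factors were called, beside 0 of all 14133 genes tested (0%). At an unadjusted p under 0.05, 0 of 10 were called, beside 600 of 14133 genes (4.25%). The adjusted p of edgeR's quasi-likelihood test was 0.999 for each factor. Group means differed by between -7.05% for Mef2c and 5.57% for Hand2, and the 95% intervals of the fitted fold changes ran from -24.2% for Mef2c to 27.1% for Hand2. Those are the outermost bounds, and single factors had narrower intervals, such as -15.4% to 5.23% for Srf and -17.9% to 6.92% for Tbx20.

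Promoter sequence is available for 7 of the 10 factors in the RefSeq table used here (GRCm38.p6), and not for Gata4, Gata6 and Tbx5. The window of 300 bases, from 250 before to 50 after each annotated start, was searched on both strands for a motif of each family: the CArG box of SRF, the A/T-rich MEF2 site, GATAA for GATA factors, AAGTG for NKX2-5, AGGTGT for T-box factors and CANNTG for HAND2. AAGTG and CANNTG can overlap, as CACTTG or CAAGTG. The promoters of Srf, Mef2a and Hand2 each hold the motif of the protein they encode, with CANNTG at -246 to -241 and at -235 to -230 for Hand2. Those of Srf and Mef2a are shown because their motifs are the rarest of those searched. The first line is Srf, chr17:46556143-46556412 on the minus strand, with its CArG boxes at -82 to -73 and at -62 to -53 from the start in capitals. The next is Mef2a, chr7:67372839-67373108 on the minus strand, with the MEF2 site at -2 to 8 in capitals, a position that spans the start. Both lines end 20 bases after the start and were chosen after the values were seen.

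Srf: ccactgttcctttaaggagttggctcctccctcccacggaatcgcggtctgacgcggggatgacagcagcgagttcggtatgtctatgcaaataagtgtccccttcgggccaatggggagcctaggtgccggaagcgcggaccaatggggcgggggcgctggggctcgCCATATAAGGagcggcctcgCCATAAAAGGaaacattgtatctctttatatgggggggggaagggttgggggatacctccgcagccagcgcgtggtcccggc
Mef2a: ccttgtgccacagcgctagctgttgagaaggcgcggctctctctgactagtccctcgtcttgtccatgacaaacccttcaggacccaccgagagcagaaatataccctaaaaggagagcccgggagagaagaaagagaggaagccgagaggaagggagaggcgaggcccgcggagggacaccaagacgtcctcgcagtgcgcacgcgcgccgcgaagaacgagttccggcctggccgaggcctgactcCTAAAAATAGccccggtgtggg

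A CArG box was found in 1.63% of the 32841 promoters of the same length and a MEF2 site in 0.557%. Of the 7 factors with a promoter, 1 held a CArG box (Srf), 1 a MEF2 site (Mef2a), 2 GATAA, 3 AAGTG, 1 AGGTGT and 3 CANNTG, where the shares of all promoters were 25.4%, 46.4%, 13.7% and 72.3% for the last 4 motifs. A factor was counted if any of its promoters held the motif, whereas the shares of all are per promoter. A match of letters is a description and not a measured binding site.

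Values per mouse are normalized counts, which are read counts divided by the size factor of the library, and fold changes are log2 of Tributyrin over vehicle with the SE of the edgeR fit. In the text, mice are numbered within their group. The labels do not say whether equal numbers pair a treated with a control mouse, and the main test treats the mice as unpaired. Exact permutation tests of 3 against 3 mice were two-sided and cannot give a p under 0.1.

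**Figure D1:**
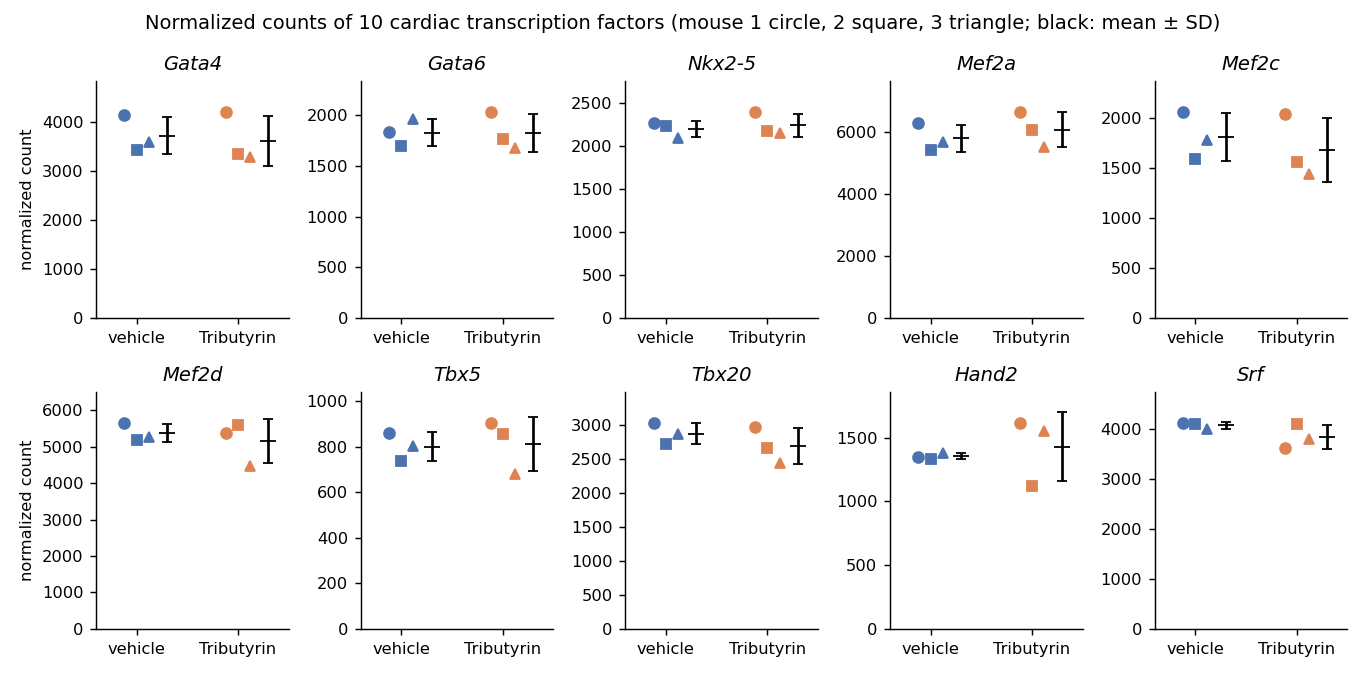
Normalized counts of the 10 factors (y axes, each from 0) in the 3 vehicle and the 3 Tributyrin mice, with 1 symbol per mouse and the mean ± SD of 3 mice in black. The groups overlap for all 10 factors, and the bars are longer with Tributyrin, most of all for Hand2, whose vehicle mice lie between 1336 and 1380.

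Gata4 (ENSMUSG00000021944, chr14:63198922-63271692, minus strand, GRCm38) encodes the GATA factor that activates natriuretic peptide and contractile genes under load. Its normalized count was 4147, 3430 and 3592 in vehicle mice 1 to 3, and 4207, 3341 and 3290 in Tributyrin mice 1 to 3. Mouse 1 of each group was high and the other 4 were close together, so the groups overlapped. The means were 3723 ± 376 and 3613 ± 515 (SD, n = 3 each), and the log2 fold change was -0.04 (SE 0.109, 95% interval -0.28 to 0.20, edgeR unadjusted p = 0.707).

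Gata6 (ENSMUSG00000005836, chr18:11052064-11085635, plus strand) encodes the relative that shares much of the function of GATA4 in the heart. It read 1835, 1689 and 1954 in vehicle and 2028, 1759 and 1671 in Tributyrin mice. The lowest and the highest of the 6 values were both in the Tributyrin group. The means of 1826 ± 133 and 1819 ± 186 (SD, n = 3 each) were the closest of the 10 pairs, with a difference of -0.351% and an interval of the log2 fold change of -0.21 to 0.20. Per length of exon, GATA4 transcript made up 77.2% ± 1.82 of the Gata4 and Gata6 sum with vehicle and 76.7% ± 0.787 with Tributyrin (SD, n = 3 each).

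Nkx2-5 (ENSMUSG00000015579, chr17:26838664-26845009, minus strand) encodes the homeodomain factor that marks the cardiac lineage and, in the adult, sustains conduction and contractile genes. Its counts after normalization were 2273, 2236 and 2093 with vehicle and 2399, 2184 and 2151 with Tributyrin. The values lay close together in both groups and overlapped. The means were 2201 ± 94.8 and 2245 ± 135 (SD, n = 3 each), a log2 fold change of 0.03 (SE 0.074, 95% interval -0.13 to 0.19, edgeR unadjusted p = 0.699). On the linear scale that interval ran from -8.91% to 14.3%.

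Mef2a (ENSMUSG00000030557, chr7:67231163-67372858, minus strand) encodes the MEF2 protein known for mitochondrial and contractile gene control after birth. Its normalized count was 6268, 5424 and 5663 with vehicle and 6637, 6055 and 5506 with Tributyrin, the highest normalized counts of the 10 factors, in part because 14681 bases of its locus are exonic. Tributyrin mouse 1 was highest and vehicle mouse 2 lowest. The means were 5785 ± 435 and 6066 ± 566 (SD, n = 3 each), a log2 fold change of 0.07 (SE 0.088, 95% interval -0.13 to 0.27, edgeR unadjusted p = 0.445).

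Mef2c (ENSMUSG00000005583, chr13:83504034-83667080, plus strand) encodes the MEF2 protein required for formation of the right ventricle and outflow tract. It read 2062, 1590 and 1778 with vehicle and 2043, 1566 and 1438 with Tributyrin. Mouse 1 was again the high one in both groups. The means were 1810 ± 238 and 1683 ± 319 (SD, n = 3 each), the lowest log2 fold change of the 10 at -0.10 (SE 0.134, 95% interval -0.40 to 0.20, edgeR unadjusted p = 0.462). That value moved with each of several libraries. It was -0.26 without Tributyrin mouse 1 (edgeR unadjusted p = 0.0429) and -0.19 without vehicle mouse 2. Without vehicle mouse 1 it was 0.0068, and without Tributyrin mouse 3 it was 0.0022.

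Mef2d (ENSMUSG00000001419, chr3:88142372-88172086, plus strand) encodes the MEF2 protein linked to the response of the adult heart to stress. Normalized counts were 5656, 5194 and 5268 with vehicle and 5378, 5593 and 4467 with Tributyrin. Tributyrin mouse 3 lay below the other 5. The means were 5373 ± 248.6 and 5146 ± 597.7 (SD, n = 3 each), a log2 fold change of -0.06 (SE 0.091, 95% interval -0.26 to 0.14, edgeR unadjusted p = 0.522).

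Within the MEF2 family, per length of exon, Mef2d made up 63.8% ± 0.982 of the sum of the 3 genes with vehicle and 62.3% ± 2.06 with Tributyrin, and Mef2c made up 8.16% ± 0.585 and 7.74% ± 0.960 (SD, n = 3 each). The share of Mef2a was 28.4%, 27.6% and 27.97% with vehicle and 30.5%, 28.5% and 30.9% with Tributyrin. Those 6 shares did not overlap between the groups, with the highest vehicle mouse just under the lowest Tributyrin mouse. The Mef2a share was singled out after the values were seen, as 1 of 7 shares in 3 families, and was not tested. Shares within a family are not independent of each other. By normalized count, the groups of 8.91% of all tested single genes did not overlap.

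Srf (ENSMUSG00000015605, chr17:46548329-46556175, minus strand), whose promoter with its own CArG boxes is printed above, encodes the MADS-box factor of actin and sarcomere genes. The 6 mice read 4120, 4100 and 3988 with vehicle and 3616, 4091 and 3804 with Tributyrin. The vehicle mice were almost equal, and Tributyrin mouse 2 lay among them while the other two were lower. The means were 4070 ± 71.3 and 3837 ± 239 (SD, n = 3 each), a log2 fold change of -0.08 (SE 0.071, 95% interval -0.24 to 0.07). Srf had the smallest unadjusted p of the 10 factors at 0.263 by edgeR and 0.2 by the exact permutation test. With scaling to library size alone its groups did not overlap, where 11.5% of all tested genes did not and 9.72% were lower with Tributyrin in that way.

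Tbx5 (ENSMUSG00000018263, chr5:119832668-119885219, plus strand) encodes the T-box factor whose loss of function causes heart and limb malformation. It had the lowest normalized counts of the 10 factors, at 860.6, 735.9 and 802.6 with vehicle and 905.2, 853.4 and 679.1 with Tributyrin. The Tributyrin mice held both extremes. The means were 799.7 ± 62.4 and 812.6 ± 118 (SD, n = 3 each), a log2 fold change of 0.03 (SE 0.113, 95% interval -0.22 to 0.28, edgeR unadjusted p = 0.812).

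Tbx20 (ENSMUSG00000031965, chr9:24718138-24774303, minus strand) encodes a T-box factor needed for adult cardiomyocyte function. Counts after normalization were 3034, 2718 and 2871 with vehicle and 2964, 2663 and 2442 with Tributyrin. Tributyrin mice 2 and 3 lay below the 3 vehicle mice and Tributyrin mouse 1 lay among them. The means were 2874 ± 158 and 2690 ± 262 (SD, n = 3 each), a log2 fold change of -0.09 (SE 0.086, 95% interval -0.28 to 0.10, edgeR unadjusted p = 0.298). Tbx5 made up 41.6% ± 0.578 of the Tbx5 and Tbx20 sum per length with vehicle and 43.6% ± 1.77 with Tributyrin (SD, n = 3 each), with Tributyrin mouse 3 at 41.6% inside the vehicle range.

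Hand2 (ENSMUSG00000038193, chr8:57320983-57324633, plus strand) encodes the helix-loop-helix factor required for growth of the right ventricle. It read 1351, 1336 and 1380 with vehicle and 1619, 1121 and 1554 with Tributyrin. The vehicle mice agreed within a coefficient of variation (CV) of 1.66%, whereas the Tributyrin mice had a CV of 18.9%, with mice 1 and 3 above every vehicle mouse and mouse 2 below every one. Counting error alone gave an SD of 3.00% in the library with the fewest Hand2 counts, so the vehicle CV was below that level. The means were 1356 ± 22.5 and 1431 ± 271 (SD, n = 3 each), a log2 fold change of 0.08 (SE 0.121, 95% interval -0.19 to 0.35, edgeR unadjusted p = 0.532). That result turned on Tributyrin mouse 2, since without it the log2 fold change was 0.23 (edgeR unadjusted p = 0.00840, adjusted p = 0.389).

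Hand2os1, a long noncoding RNA on the opposite strand of the Hand2 locus, shares 461 bases of exon with it, or 19.6% of the exonic length of Hand2. Its normalized count was 1039, 869.2 and 1087 with vehicle and 1268, 1055 and 1250 with Tributyrin. Tributyrin mice 1 and 3 were above all vehicle mice, as for Hand2, and mouse 2 lay inside the vehicle range. Its log2 fold change was 0.26 (SE 0.104, edgeR unadjusted p = 0.0327, adjusted p = 0.999), and without vehicle mouse 2 it was 0.16 with an unadjusted p of 0.146. Whether the counting used strand is not given in the sources used here, so how reads from the shared bases were counted is not known. The opposite-strand overlaps of the other factors were smaller, with 8.87% of the exonic length for Mef2d (1700113A16Rik, at most 8 counts per library), 2.06% for Mef2a (Lysmd4) and 1.43% for Gata6 (1010001N08Rik).

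**Figure D2:**
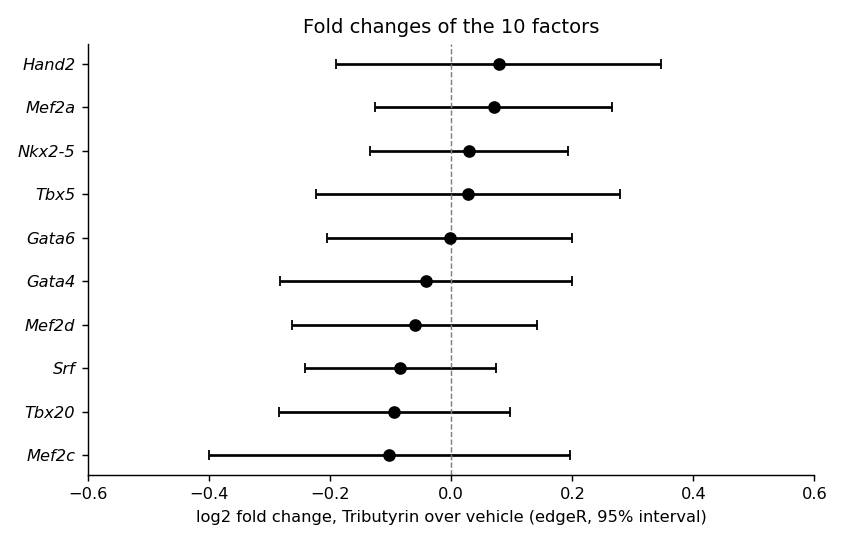
Log2 fold change of each factor, Tributyrin over vehicle (x axis), with its 95% interval from the edgeR fit over 3 mice per group. All 10 intervals include 0 (dashed line), the points lie between -0.10 and 0.08, and Mef2c has the widest interval.

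Across the 10 factors, 4 had a higher and 6 a lower fitted mean with Tributyrin, and the median log2 fold change was -0.02, beside -0.0013 over all tested genes. With scaling to library size alone 2 were higher, but hardly so. Mef2a was at 0.00033 (edgeR unadjusted p = 0.997) and Hand2 at 0.0025 (edgeR unadjusted p = 0.983). The median size of the log2 fold change, regardless of sign, was 0.0652, beside 0.0883 over all tested genes. A fitted mean above that of vehicle was seen for 49.6% of all tested genes. Groups that did not overlap were seen for 0 of the 10 factors and for 8.91% of all tested genes (4.26% higher and 4.65% lower with Tributyrin). The depth was ample for these genes, as raw counts ran from 592 to 7098 per library and counting error alone gave an SD of at most 4.11% of a value, so the intervals reflect the spread between mice. The dispersion that edgeR fitted was a coefficient of biological variation between 0.0757 and 0.122 (median 0.09), beside a median of 0.0831 for the 5620 tested genes with a mean normalized count of 500 to 10000.

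Some libraries were high or low for many of the factors at once. Tributyrin mouse 1 had the highest value of 6 factors and vehicle mouse 1 that of the other 4, and Tributyrin mouse 3 had the lowest value of 6 factors. Among the 5620 genes of like abundance, 17.3% were highest in Tributyrin mouse 1, 9.23% in vehicle mouse 1, and 24.3% were lowest in Tributyrin mouse 3. The sum of the 10 normalized counts was 31607, 28453 and 29390 with vehicle and 31797, 29226 and 27003 with Tributyrin, with means of 29817 ± 1620 and 29342 ± 2399 (SD, n = 3 each). The highest and the lowest sum were thus both Tributyrin mice. The CV over the 3 mice was larger with Tributyrin for all 10 factors, whereas it was larger for 61.6% of all tested genes and for 69.2% of those of like abundance. The factors share the same 6 libraries, so these counts are not independent of each other.

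**Figure D3:**
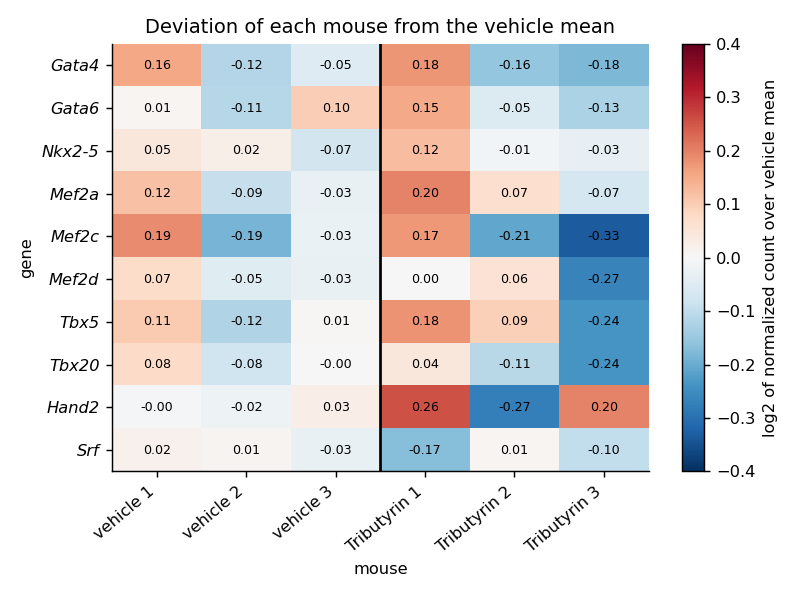
Log2 of the normalized count of each factor (rows) in each mouse (columns) over the mean of the 3 vehicle mice, with the value in each cell and vehicle mice to the left of the black line. Tributyrin mouse 1 is above 0 for every factor but Srf, Tributyrin mouse 3 is below 0 for every factor but Hand2, and Hand2 runs from 0.26 in Tributyrin mouse 1 to -0.27 in mouse 2.

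Over the 6 libraries, the median Pearson correlation of log2 CPM was 0.574 among the 45 pairs of factors, with 7 pairs above 0.8 and 9 below 0. The highest was 0.975, between Gata4 and Mef2c, and the next 0.957, between Mef2c and Tbx20. The lowest was -0.853, between Hand2 and Srf. These are descriptions of 6 libraries of 2 groups, and the factors in a library share its depth and scaling. Among 5882 genes with a mean normalized count of at least 500, Mef2c was most alike in pattern to Samd8 (0.985), Hif1a (0.984) and the cardiac homeobox gene Irx4 (0.976), and 0.306% of those genes were above 0.95. Srf was most alike to Ptprb (0.981), Vars (0.974) and Rps3a3 (0.973), with 0.34% above 0.95.

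Levels of different genes can be compared only per length, and RPKM (reads per kilobase of exon, scaled to a common TMM-adjusted library size) was used for that. The mean of the 6 mice was 52.0 RPKM for Srf, 49.2 for Nkx2-5, 35.7 for Gata4, 33.4 for Mef2d, 22.5 for Hand2, 15.4 for Mef2a, 10.7 for Gata6, 8.82 for Tbx20, 6.56 for Tbx5 and 4.23 for Mef2c. Srf was above Nkx2-5 in 5 of 6 mice and Gata4 above Mef2d in 5 of 6, and the ranges of those neighbours overlapped. Every other neighbour in that order was separated in 6 of 6 mice without overlap. Srf stood at the 95.6 percentile of all tested genes and Mef2c at the 59.4 percentile, where the median tested gene had 2.85 RPKM. The length counts every exon of every annotated transcript, which is 15715 bases and 31 transcripts for Mef2c and 1719 bases and 2 transcripts for Nkx2-5, so a gene with long or unused exons is given too low a level.

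**Figure D4:**
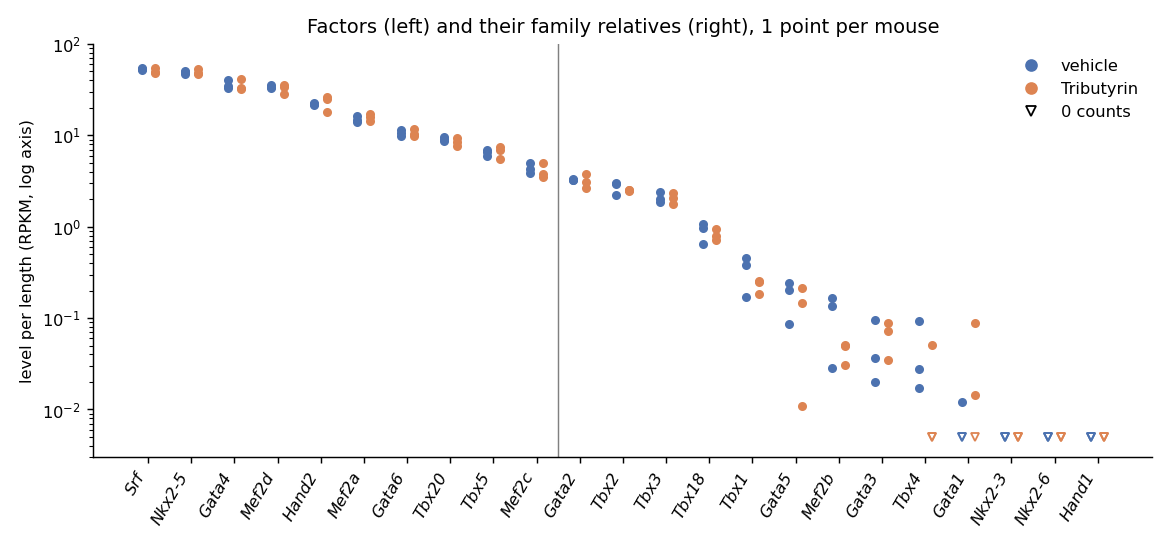
Level per length (RPKM, log axis) of the 10 factors to the left of the line and of 13 relatives of the same protein families to the right, with 1 point per mouse and open triangles for 0 counts. The factors run from 52.0 (Srf) to 4.23 (Mef2c), and each relative has a mean below that of Mef2c.

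The relatives of these factors had a lower mean level per length than each of the factors, and some were undetected. Nkx2-3, Nkx2-6 and Hand1, the counterpart of Hand2 in the left ventricle of the embryo, had 0 counts in all 6 libraries. Gata1, the erythroid factor, had 0 to 6 counts per library, Gata3 2 to 8, Gata5 1 to 27, Mef2b 1 to 8 and Tbx4 0 to 8. Gata2, known in endothelial and blood cells, had 3.21 RPKM, above the 2.85 of the median tested gene. Tbx2 had 2.61 and Tbx3, a conduction system factor, 2.08. Of the 13 relatives 6 were tested, all 6 with a lower fitted mean with Tributyrin (median log2 fold change -0.12), and 0 passed an unadjusted p of 0.05. Isl1, the factor of second heart field progenitors, was also at 0 in all libraries.

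Among 14 other factors of the heart, 12 were tested, 7 with a higher and 5 with a lower fitted mean (4 higher with library size alone), and the median log2 fold change was 0.03. The Iroquois homeobox gene Irx5 had an unadjusted p of 0.0346 (edgeR) at a log2 fold change of 0.38. Means of the normalized count were 246.1 ± 48.9 with vehicle and 319.2 ± 43.0 with Tributyrin (SD, n = 3 each). The groups overlapped, and without vehicle mouse 2 the log2 fold change was 0.24 with an unadjusted p of 0.147. Irx5 did not pass the FDR of 10%. Tead1, which binds next to SRF and GATA4 at muscle genes, had the highest normalized count of the list, with 6640 ± 437 and 5833 ± 977 (SD, n = 3 each, edgeR unadjusted p = 0.129).

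All 17 cofactors and modifiers were tested, and 0 passed an unadjusted p of 0.05, with 7 higher (4 with library size alone), 10 lower and a median log2 fold change of -0.05. The HDAC that represses MEF2 with the most transcript, Hdac5, had 14.3 RPKM and normalized counts of 3206 ± 97.4 with vehicle and 3400 ± 279 with Tributyrin (SD, n = 3 each), a log2 fold change of 0.09. The muscle methyltransferase gene Smyd1, at 142 RPKM, and the SRF antagonist Hopx, at 130 RPKM, were above all 10 factors per length. Hopx had a log2 fold change of 0.14 (edgeR unadjusted p = 0.132). Myocd, which encodes myocardin, had 8.66 RPKM and a normalized count of 1616, 1575 and 1477 with vehicle and 1473, 1610 and 1022 with Tributyrin, where mouse 3 was lowest as it was for 6 of the factors. The largest difference of the list was that of Mrtfa, which encodes another coactivator of SRF, at -0.24 (edgeR unadjusted p = 0.0662).

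Of 20 cardiomyocyte genes that these factors are known to activate, 0 passed the FDR of 10%, 3 were higher at an unadjusted p under 0.05 and 2 lower, where 1.97% and 2.28% of all tested genes were. Phospholamban (Pln), the inhibitor of the calcium pump, had a log2 fold change of 0.24 (edgeR unadjusted p = 0.0124). In the same direction, the thin filament genes Tnnt2 and Tnni3 had 0.23 and 0.21 (edgeR unadjusted p = 0.0315 and edgeR unadjusted p = 0.0262). The normalized counts of Pln were 36328, 34767 and 33891 with vehicle and 43345, 37123 and 43375 with Tributyrin, and those of Tnni3 did not overlap either. In the other direction stood the cardiac actin gene Actc1 at -0.21 (edgeR unadjusted p = 0.0450) and Nppb at -1.0 (SE 0.309, edgeR unadjusted p = 0.00837). Over the whole list 13 genes were higher and 7 lower with a median of 0.03, and with library size alone 5 were higher. Each of these 4 smaller differences missed an unadjusted p of 0.05 when 1 library was left out, with the largest edgeR p being 0.056 for Pln, 0.0909 for Tnni3 (both without vehicle mouse 3), 0.124 for Tnnt2 (without vehicle mouse 2) and 0.181 for Actc1 (without Tributyrin mouse 1).

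Nppb encodes brain natriuretic peptide, whose promoter is bound by GATA4 in overload. Its normalized count was 1776, 2317 and 1665 with vehicle and 431.1, 1158 and 1293 with Tributyrin. The groups did not overlap. Tributyrin mouse 1 had the lowest Nppb and the highest Gata4 (4207), while vehicle mouse 1, with Gata4 at 4147, had Nppb at 1776. A relation between Gata4 and Nppb over the mice was not tested. The means were 1919 ± 349 and 960.5 ± 463 (SD, n = 3 each, exact permutation p = 0.1, the smallest possible), and its adjusted p was 0.999. Without 1 library at a time the log2 fold change ran from -1.27 to -0.64 with unadjusted edgeR p-values of at most 0.0371. Nppa, which encodes atrial natriuretic peptide, had a log2 fold change of -0.53 (edgeR unadjusted p = 0.142), and Myh7, the fetal myosin heavy chain, -0.36 (edgeR unadjusted p = 0.143), both with overlapping groups. The promoters of Nppb (chr4:147985650-147985919, plus strand) with GATAA at -94 to -90 and -83 to -79, of Actc1 (chr2:114052856-114053125, minus strand) with a CArG box at -47 to -38 and of Acta1 (chr8:123894756-123895025, minus strand) with a CArG box at -73 to -64 are shown because each holds a motif of GATA4 or SRF. Nppb and Acta1 had the lowest fold changes of their lists, and Actc1 had an unadjusted p under 0.05. Capitals mark those motifs, and the choice was made after the values were seen. Nppb, Actc1 and Acta1 all had a lower fitted mean with Tributyrin. Pln, Tnni3 and Tnnt2, which had a higher fitted mean, also have a promoter with GATAA, which is not shown.

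Nppb: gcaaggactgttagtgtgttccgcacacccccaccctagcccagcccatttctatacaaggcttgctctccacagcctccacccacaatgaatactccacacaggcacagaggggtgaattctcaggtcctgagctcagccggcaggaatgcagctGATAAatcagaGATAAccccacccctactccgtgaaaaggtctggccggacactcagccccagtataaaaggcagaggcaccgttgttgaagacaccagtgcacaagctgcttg
Actc1: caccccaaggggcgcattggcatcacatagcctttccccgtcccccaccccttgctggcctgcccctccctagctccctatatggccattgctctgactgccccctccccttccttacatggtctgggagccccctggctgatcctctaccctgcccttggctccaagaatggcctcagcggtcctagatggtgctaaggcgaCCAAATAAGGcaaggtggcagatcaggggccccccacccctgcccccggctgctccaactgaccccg
Acta1: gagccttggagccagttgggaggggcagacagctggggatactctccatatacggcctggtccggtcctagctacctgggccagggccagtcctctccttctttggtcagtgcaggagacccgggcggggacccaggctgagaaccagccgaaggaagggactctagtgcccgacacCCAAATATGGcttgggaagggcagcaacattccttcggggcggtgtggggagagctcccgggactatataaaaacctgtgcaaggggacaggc

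GATAA was found in 10 of the 18 cardiomyocyte genes with a promoter (55.6%), where 25.4% of all promoters hold it, and a CArG box in 5 of 10 actin and smooth muscle genes (50%), where 1.63% hold it. A gene was counted if any of its promoters held the motif, whereas the share of all is per promoter. Myl2 and Tnnt2, for example, also have a promoter without GATAA. The lists hold genes long known as targets, so those shares are no new evidence of binding.

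Of 12 actin and smooth muscle genes known as SRF targets, 0 passed the FDR of 10%, 6 were higher and 6 lower, and the median log2 fold change was 0.03. Cnn1, which encodes the smooth muscle protein calponin, had a log2 fold change of 0.71 (edgeR unadjusted p = 0.0205) with normalized counts of 66.5 ± 11.0 and 108.8 ± 35.9 (SD, n = 3 each). The groups overlapped, and without Tributyrin mouse 3 its log2 fold change was 0.52 (edgeR unadjusted p = 0.0856). Skeletal actin, Acta1, had the lowest value, -1.20 (SE 0.55, edgeR unadjusted p = 0.0525). Its normalized count was 9796, 30672 and 9401 with vehicle and 2476, 6672 and 12524 with Tributyrin, with vehicle mouse 2 far above the rest. Without that mouse its log2 fold change was -0.41 (edgeR unadjusted p = 0.411). The most abundant genes of the list, Tpm1 and Fhl2, had 0.08 and 0.09. Of 8 immediate early genes that SRF drives with its ternary complex partners, 6 were tested, 3 higher (2 with library size alone) and 3 lower, and 0 passed an unadjusted p of 0.05.

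**Figure D5:**
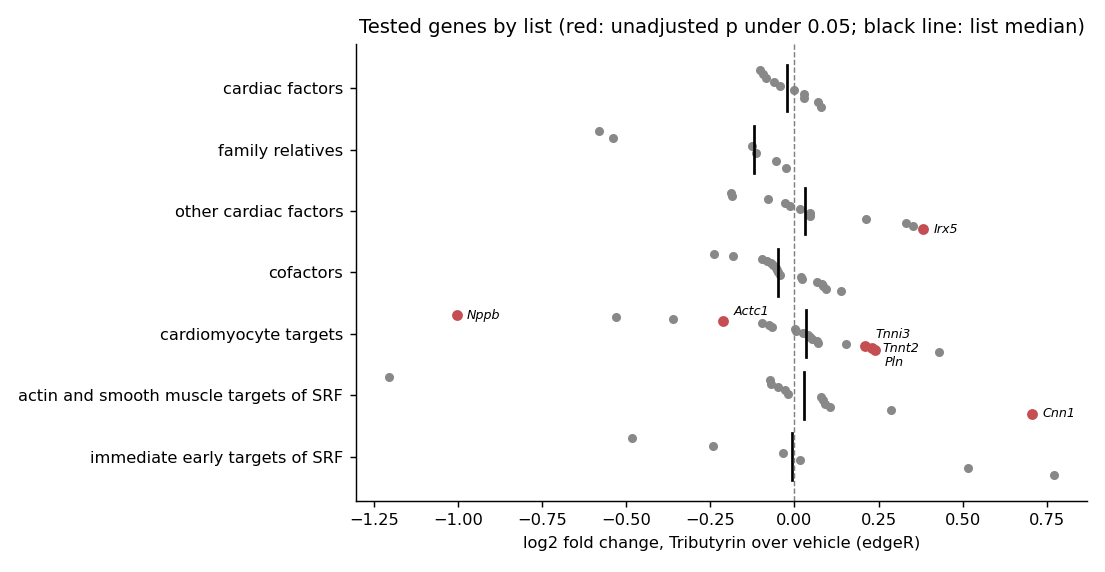
Log2 fold change, Tributyrin over vehicle (x axis), of every tested gene of the 10 factors and of 6 lists of relatives, partners and targets, with 1 point per gene, a black line at the median of each list, and red points and names for an unadjusted p under 0.05. The 10 factors lie between -0.10 and 0.08, while genes of the target lists range from -1.20 (Acta1) to 0.77 (Nr4a1).

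The libraries held 20369746 to 32734485 counts. The label of ventricle was checked by markers, and atrial transcripts were unequal between libraries. The summed CPM of Myl7, Myl4, Sln and Mybphl was 160.9, 154.0 and 14.0 with vehicle and 19.8, 48.5 and 18.5 with Tributyrin, and 4 of the 5 atrial markers tested were lower with Tributyrin at an unadjusted p under 0.05 (edgeR), while Bmp10 was at 0 or 1 count. With the mean log2 CPM of Myl7, Myl4, Sln and Mybphl as a covariate, 0 of the 10 factors passed an unadjusted p of 0.05. Nppb then had a log2 fold change of -0.90 (edgeR unadjusted p = 0.0253). Pln also stayed under 0.05 with that covariate (edgeR unadjusted p = 0.0397). Irx5, Actc1, Tnnt2, Tnni3, Cnn1 and Hand2os1 no longer did, with unadjusted edgeR p-values from 0.0602 (Cnn1) to 0.132 (Hand2os1). In that order, their log2 fold changes were 0.38, -0.23, 0.24, 0.21, 0.63 and 0.19 with the covariate. Without it they were 0.38, -0.21, 0.23, 0.21, 0.71 and 0.26. Summed markers of 7 cardiomyocyte genes ran from 41874 to 44760 CPM with vehicle and from 41460 to 47539 with Tributyrin, and those of endothelial cells from 594.4 to 611.3 and from 566.1 to 631.1. Fibroblast markers ran from 725.7 to 775.1 and from 665.4 to 769.8. Of the 6 fibroblast markers, 2 were lower at an unadjusted p under 0.05, where 2.28% of all tested genes were. They were Col1a1 at -0.46 (edgeR unadjusted p = 0.0224) and Lum at -0.31 (edgeR unadjusted p = 0.00257). The log2 fold changes of the other fibroblast markers were -0.15 for Dpt, -0.0074 for Pdgfra, 0.0051 for Dcn and 0.067 for Tcf21. The 6 mural cell markers ran from 1045 to 1080 and from 1102 to 1189, without overlap. For single genes, groups did not overlap for 8.91% of those tested, by normalized count. The log2 fold changes of the mural markers were 0.71 for Cnn1, 0.59 for Myh11, 0.14 for Rgs5, 0.022 for Abcc9, 0.0068 for Kcnj8 and -0.19 for Pdgfrb. Of these, 5 were higher, and 3 with library size alone. In whole ventricle, fewer cells of a type and less RNA per cell cannot be told apart, and the part of these differences in the values above was not tested.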

How the data were processed

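Ventricle RNA of 6 mice was sequenced as stranded mRNA libraries with single-end reads of 50 bases. The values used are whole-number counts of reads per gene, deposited by the authors without normalization. Per the study's methods and the submitters' processing notes, reads were trimmed with cutadapt 1.13, reads of ribosomal RNA were removed, and the rest were aligned to mm10 with STAR and counted with HTSeq 0.6.1p1. Neither the annotation release nor whether reads were counted by strand is given in the sources used here. Identifiers were matched to GENCODE M21 (GRCm38) for symbols and coordinates, and promoters came from RefSeq.

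Groups followed the labels. Counts were tested with edgeR 4.0.16 (R 4.3.3; quasi-likelihood test, TMM scaling, filterByExpr with a minimum count of 10 and total of 15, no covariate), and p-values were adjusted by Benjamini-Hochberg over 14133 genes. Normalized counts are counts divided by DESeq2 1.42.0 size factors. P-values rest on the spread between these mice, and edgeR moderates the spread of each gene toward that of the other genes. Intervals cover 95%. The scripts were tested on simulated data. Every library pair differed by more than sampling noise (chi-square per degree of freedom 7.4 to 31.84).

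The 10 factors and all lists were chosen with earlier results of these data known. From each list, genes with an unadjusted p under 0.05 and some of the most abundant ones were named; Nppa, Myh7, Mrtfa, Hopx, Myocd, Acta1, Nr4a1, Hand2os1, Isl1 and the relatives named by level were chosen after their values were seen, except those the rule also names. The alternatives were other scaling, filters and tools, a replicate block, leaving out libraries and, added after seeing the data, an atrial covariate.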

Additional observations from a re-analysis of the deposited data

How the results depend on the processing

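None of the 10 factors passed the FDR of 10% under any of the 15 alternatives (other size factors, library size alone, no filter, a mean CPM of at least 5, DESeq2, limma-voom, replicate block, atrial covariate, leaving out libraries), and the lowest adjusted p was 0.389, for Hand2 without Tributyrin mouse 2. Over all genes the count past FDR 10% was 0 by edgeR (600 at an unadjusted p under 0.05), 167 with no filter on low counts, 11 with DESeq2 and 0 to 3 without 1 library. With 1 library left out, 0 to 1 factors had an unadjusted p under 0.05 (Mef2c without Tributyrin mouse 1, Hand2 without mouse 2), and the median log2 fold change of the factors ran from -0.07 to 0.03. Mef2a, Tbx20 and Srf kept their direction under all 15 alternatives, though Mef2a was only at 0.00033 with library size alone. The sign of the others depended on the setting: with library size alone Nkx2-5 was at -0.042, Tbx5 at -0.041 and 1 factor, Srf, had groups apart; with no filter Gata6 was at 0.0019; without vehicle mice 1 and 2 together, an alternative added after seeing the data, Gata4 was at 0.0060. Without 1 library, Gata4 ran from -0.16 to 0.048, Gata6 from -0.083 to 0.059, Nkx2-5 from -0.016 to 0.064, Mef2c from -0.26 to 0.0068, Mef2d from -0.13 to 0.036, Tbx5 from -0.052 to 0.14 and Hand2 from -0.015 to 0.23. The cause was not tested. Library size alone shifted the median of all genes by -0.07.

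The labels do not say whether mice with the same number were paired. Their deviations from the group means had correlations of 0.214, 0.037 and 0.015. With no reference to compare them with, these values cannot decide it. With the replicate number as a block 2 genes passed FDR 10%, and no factor did.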
